A study of Mus musculus with 9 samples.

Results

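The kinetochore genes are the 186 genes, of 56691 in the deposited table, whose cellular component annotation holds the Gene Ontology term for the kinetochore. Symbols starting with Ccn or Cdk and genes annotated to DNA replication, homologous recombination or the Fanconi anemia pathway were left out, which removed Cenps, Cenpx and Zfp276 from the 189 genes with the term. The rule used annotation and no measured value. RNA was sequenced from RAW264.7, a transformed mouse macrophage line. Given RANKL, the cytokine that binds the receptor RANK, these cells turn into osteoclast-like cells, which resorb bone. The control group was untreated, the RANKL group received RANKL, and the UD+RANKL group received RANKL with uridine (UD), a pyrimidine nucleoside. Each group held 3 libraries, taken after 3 days of culture, which the series' design describes as biological replicates. The labels give no dose, all libraries came from the same cell line, and UD without RANKL was not analysed here.

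The kinetochore is the protein assembly that forms on the centromere of each chromosome and holds it to the spindle. A nucleosome with the histone variant CENP-A marks the site, the constitutive centromere-associated network (CCAN) sits on it throughout the cell cycle, and in mitosis the KMN network is added, whose NDC80 complex grips microtubules. Checkpoint proteins gather at kinetochores that lack microtubules and hold back anaphase, and dynein, the minus-end motor, strips them away once attachment is made. Many of these genes are transcribed mainly in late cell cycle stages, so their RNA is commonly read as a sign of dividing cells. Osteoclasts arise by fusion of precursors that have stopped dividing.

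Of the 186 members, 121 were annotated as protein coding and 65 as pseudogenes. An expression filter of at least 1 FPKM (fragments counted per kilobase of exon and scaled to the library total) in at least 3 libraries was passed by 115 members, among them 112 protein-coding genes and 3 pseudogenes. All but 2 of these 115 reached 1 FPKM in each of the 9 libraries. Of the other 71 members, 63 had 3 counts or fewer in every library, 48 of them none. Those with more counts included Septin2 with 83 to 143, Tex14 with 18 to 63 and the pseudogene Plk-ps1 with 10 to 39. The protein-coding genes among the 71 included Rec8 and Meikin, which act in meiosis, Tex14 and Kif2b, known from testis, and the neuronal dynein chain Dync1i1. Septin2, which encodes a septin filament subunit, had 0.54 to 1.06 FPKM and is listed in the table next to a second entry on the same strand that was at 0, so reads between those entries could be ambiguous.

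The libraries held 15951800 to 19746862 counts. The summed level of all members was 10412 to 10466 CPM (counts scaled to a fixed library total) in the control libraries, 8928 to 9312 in the RANKL libraries and 10402 to 10620 in the UD+RANKL libraries. The RANKL libraries lay below both other groups without overlap, and the control and UD+RANKL ranges overlapped. As a check of the labels, the summed FPKM of 9 osteoclast markers was 46.9 to 50.1 in control, 2641 to 2844 in RANKL and 1666 to 1703 in UD+RANKL, and the one with the lowest level, Calcr, was at 0 in all control libraries. The summed FPKM of 8 macrophage markers was 9420 to 10012, 2528 to 2772 and 2205 to 2339 in the same order. All 8 osteoclast markers that passed the filter rose with RANKL and fell with UD+RANKL against RANKL, while 7 of 8 macrophage markers fell with RANKL. Fibroblast markers summed to at most 0.15 FPKM, and the lymphocyte markers Cd3e and Ms4a1 were at 0 in every library. The osteoclast and macrophage markers thus moved with the groups, and their part in the kinetochore results was not tested. In such bulk RNA, fewer dividing cells and less of an RNA per cell cannot be told apart.

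Changes were tested with edgeR's quasi-likelihood test on the deposited counts, scaled by the TMM method, with Benjamini-Hochberg adjustment over the 11995 genes that passed the filter. A gene is said to rise or fall where its adjusted p was under 0.05, and adjusted p values below come from this test with 3 libraries a group. Fold changes are on the scale of TMM-scaled counts, whereas FPKM values rest on library totals, and the TMM factors were 0.959 to 0.962 in RANKL libraries and 1.01 to 1.03 in the others, so ratios of FPKM can differ slightly from the fold changes given.

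Kinetochore genes fell with RANKL more often than they rose. In RANKL against control, 58 of 115 members fell and 26 rose, where 30.2% of all tested genes fell and 27.3% rose (57.5% in either direction). The median log2 fold change was -0.16 over the members and -0.03 over all genes. With libraries scaled by total counts alone, the split was 66 down and 16 up, against 36.8% and 21.5% of all genes. All 3 RANKL libraries lay below all 3 control libraries in FPKM for 64 members and above them for 17. Of all genes, 61.7% had groups that did not overlap, 38.8% below and 22.9% above.

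Addition of UD to RANKL went with the opposite balance. In UD+RANKL against RANKL, 59 of 115 members rose and 12 fell, where 18.7% of all tested genes rose and 20.2% fell (38.9% in either direction). The median was 0.19 over the members and 0.00 over all genes. Scaling by total counts gave 69 up and 8 down, against 28% and 14.3% of all genes. All UD+RANKL libraries lay above all RANKL libraries for 75 members and below them for 10. Of all genes, 51.7% had groups that did not overlap, 34.1% above and 17.6% below. Both comparisons use the same 3 RANKL libraries, so they are not independent of each other. UD+RANKL against control called 26 members higher and 33 lower of 115, beside 26.5% and 27.4% of all genes (53.9% in either direction), and the median was -0.04 over the members and 0.00 over all genes. The libraries did not overlap for 29 members above and 37 below control, and for 59.9% of all genes, 29.5% above and 30.4% below.

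**Figure D1:**
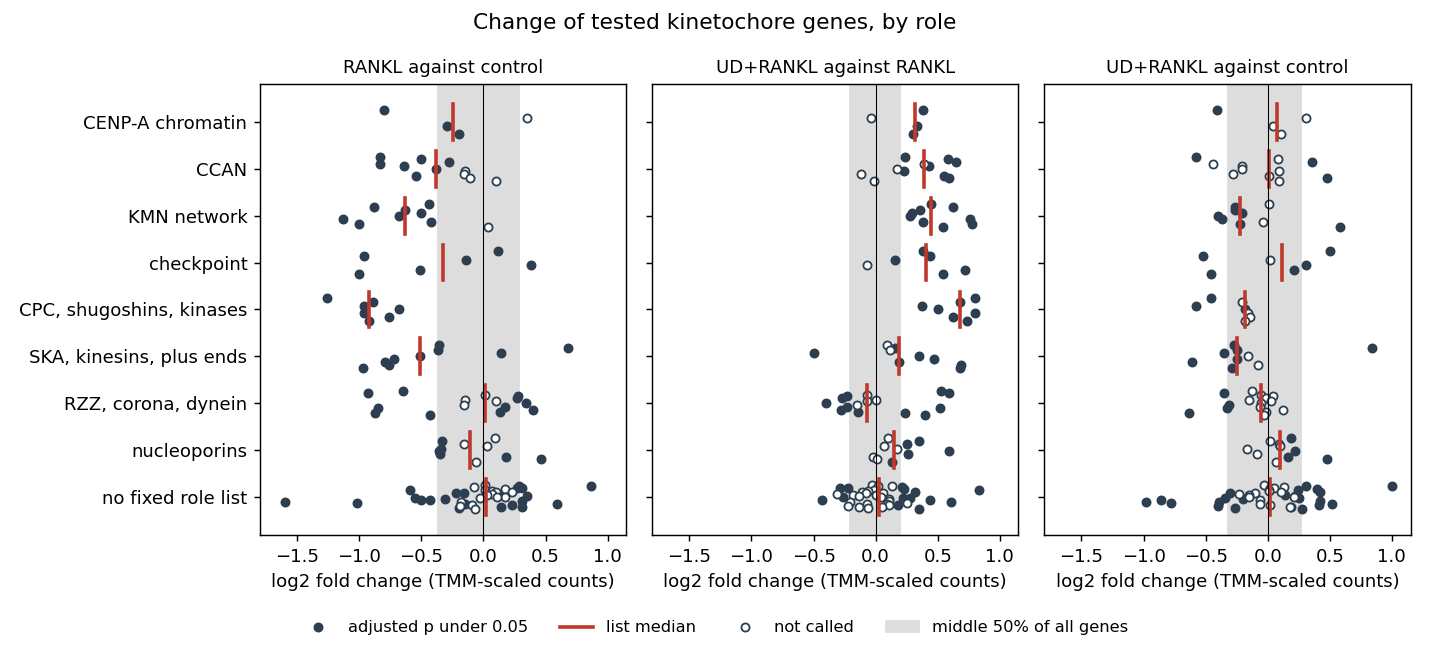
Log2 fold change (x axis, TMM-scaled counts) of 109 tested kinetochore genes in each of the 3 comparisons, with 1 point per gene and 1 row per role. Filled points have an adjusted p under 0.05, the red bar is the list median and the gray band holds the middle 50% of all tested genes. The KMN network and the passenger and kinase genes lie to the left of 0 with RANKL, except Zwint at 0.04, and to the right with UD+RANKL against RANKL, while the RZZ, corona and dynein genes lie on both sides.

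Promoter sequence was examined because many of these genes moved together. In vertebrates, genes of late cell cycle stages often carry the cell cycle genes homology region, the letters TTTGAA or TTCGAA near the transcription start, which the DREAM and MuvB complexes bind. RefSeq promoters of GRCm38.p6, from 250 bases before to 50 bases after the start, were found by symbol for 93 of the 115 tested members. On either strand, these letters stood somewhere in 35 of the 93 promoters (37.6%), in 16.8% of 8369 promoters of tested genes and in 21.7% of all 27025 promoters. From 20 bases before to 50 bases after the start, a window chosen after the data were seen, they stood in 16 of 93 (17.2%), against 3.23% of tested genes and 4.16% of all promoters. The letters CCAAT, bound by NF-Y, stood in 52.7% of the member promoters, 43.6% of those of tested genes and 41.1% of all. Matches of this length are descriptions of sequence and were not tested as binding sites. The lines here show 30 bases around the letters, in capitals and on the sense strand, for members of 6 different parts of the kinetochore whose values follow.
Cenpa (chr5:30666890-30666919, + strand): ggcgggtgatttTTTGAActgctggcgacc
Knl1 (chr2:119047138-119047167, + strand): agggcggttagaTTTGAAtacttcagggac
Spc25 (chr2:69206172-69206201, - strand): ggcggtggagagTTTGAAattgaaagactg
Bub1 (chr2:127831828-127831857, - strand): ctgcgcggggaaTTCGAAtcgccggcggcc
Cenpf (chr1:189688067-189688096, - strand): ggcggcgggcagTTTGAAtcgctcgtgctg
Plk1 (chr7:122159453-122159482, + strand): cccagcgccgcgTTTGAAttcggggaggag

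The 16 members with these letters near the start were Bub1, Bub1b, Cenpa, Cenpf, Cenpn, Hjurp, Knl1, Ndc80, Plk1, Rangap1, Septin7, Sgo1, Ska3, Spag5, Spc25 and Ttk. With RANKL against control 14 of them fell and 2 rose, with a median of -0.78, while 33 of the 77 other members with a promoter fell and 17 rose, with a median of -0.14. The 2 that rose were Bub1, whose call is weak as given further on, and Septin7. For UD+RANKL against RANKL, 15 of the 16 rose and 0 fell (median 0.49), whereas 33 of the 77 rose and 9 fell (median 0.11). With the letters counted anywhere in the promoter the contrast was smaller. With RANKL 23 of 35 such members fell and 6 rose (median -0.37), against 24 and 13 of the 58 others (median -0.15), and in UD+RANKL against RANKL the medians were 0.32 and 0.10. These counts are descriptive, since the narrow window was chosen after the data were seen. Among all tested genes, 30.2% fell and 27.3% rose with RANKL, and 18.7% rose and 20.2% fell in UD+RANKL against RANKL. Tested genes outside the members were not split by these letters. The letters near the start were also spread unevenly over the roles. They stood in 3 of 8 KMN, 3 of 6 checkpoint and 1 of 11 CCAN promoters. Of the RZZ, corona and dynein genes 1 of 12 had them, of the nucleoporins 1 of 7, and of members in no role list 1 of 30. A split by these letters cannot be told apart from a split by role, and neither was tested.

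Centromeric chromatin genes were examined first, since CENP-A defines where a kinetochore forms. Cenpa had 15.33, 16 and 13.4 FPKM in control, 7.74, 8.38 and 8.15 in RANKL, and 11.72, 11.05 and 10.77 in UD+RANKL. The 3 groups did not overlap and UD+RANKL lay between the others. Cenpa fell with RANKL by 0.80 on the log2 scale (SE 0.0684, adjusted p = 1.17e-10) and was higher with UD+RANKL than with RANKL by 0.38 (SE 0.0692, adjusted p = 7.57e-05). Hjurp, the chaperone that loads CENP-A, had 18.83, 19.06 and 17.96 FPKM in control, 14.52, 14.4 and 14.07 in RANKL, and 18.89, 18.9 and 19.76 in UD+RANKL. For Hjurp the control and UD+RANKL libraries overlapped, with a log2 difference of 0.04 (SE 0.0487, adjusted p = 0.466). Over the 4 tested members of this list, 3 fell and 0 rose with RANKL (median -0.24), and 3 rose and 0 fell in UD+RANKL against RANKL (median 0.32). The exception in both was Cenpv, at 0.35 (adjusted p = 0.0675) and -0.04 (adjusted p = 0.869). For comparison, 30.2% of all tested genes fell and 27.3% rose with RANKL, and 18.7% rose and 20.2% fell in UD+RANKL against RANKL.

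The CCAN links CENP-A chromatin to the outer kinetochore, and 7 of its 11 tested members fell with RANKL while 0 rose (median -0.38). Cenpc1, the scaffold that binds CENP-A nucleosomes, had 17.76, 17.68 and 20.68 FPKM in control, 8.9, 10.53 and 10.28 in RANKL, and 12.14, 12.87 and 12.37 in UD+RANKL. Its fall with RANKL was -0.83 on the log2 scale (SE 0.0693, adjusted p = 7.87e-11) and its rise with UD+RANKL against RANKL was 0.24 (SE 0.0704, adjusted p = 0.00702). Without RANKL library 1, that rise was 0.17 and no longer passed (adjusted p = 0.0637). Cenpi, which helps recruit the MIS12 and NDC80 complexes, went beyond the control level. It had 5.73, 5.21 and 5.09 FPKM in control, 4.26, 4.05 and 4.07 in RANKL, and 6.51, 7 and 7.1 in UD+RANKL. Cenpi was 0.36 higher in UD+RANKL than in control on the log2 scale (SE 0.0823, adjusted p = 0.0005), with no overlap between the groups. Cenpn, which reads the CENP-A nucleosome, fell by 0.64 with RANKL and rose by 0.43 with UD+RANKL against RANKL (adjusted p = 6.8e-06 and 0.00185). Cenpt, which also binds the NDC80 complex, passed in neither, at -0.16 (adjusted p = 0.339) and -0.12 (adjusted p = 0.568). Between UD+RANKL and RANKL, 7 of the 11 genes rose and 0 fell, with a median of 0.39, beside 18.7% and 20.2% of all tested genes. With RANKL, 30.2% of all tested genes fell and 27.3% rose. Cenpm, Cenpo, Cenpt, Cenpu, Cenpw and Itgb3bp had mean levels of 2.2 to 3.43 FPKM and SE values up to 0.199, which makes their changes the least precise of this list.

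The KMN network is the microtubule-binding core, and of its 9 tested members 8 fell and 0 rose with RANKL (median -0.63), while all 9 rose with UD+RANKL against RANKL (median 0.45). The shares of all tested genes were 30.2% down and 27.3% up with RANKL, and 18.7% up and 20.2% down in UD+RANKL against RANKL. The rise of Nsl1, a MIS12 complex subunit, did not pass with RLE size factors or DESeq2, both at 0.27, without the filter, or without control library 2, any RANKL library, or UD+RANKL library 1 or 3 (0.21 to 0.29), which left 8 of 9. Nuf2 (ENSMUSG00000026683, listed on the minus strand of chromosome 1 at 169325503 to 169359033), the partner of Ndc80 in the microtubule-gripping arm, changed most in this list with RANKL. Coordinates here and further on are as the deposited table lists them, which differ from GRCm38 for most members. Nuf2 had 14.18, 13.75 and 14.68 FPKM in control, 6.48, 6.36 and 5.5 in RANKL, and 11.39, 10.73 and 10.76 in UD+RANKL. The log2 change was -1.13 with RANKL (SE 0.0676, adjusted p = 6.98e-14) and 0.76 with UD+RANKL against RANKL (SE 0.0682, adjusted p = 1.55e-09). Spc25, which ties the complex to its base, had 13.48, 14.41 and 12.55 FPKM in control, 6.29, 6.05 and 6.67 in RANKL, and 11.52, 11.88 and 11.31 in UD+RANKL. Nuf2 and Spc25 were both lower in every RANKL library than in any other library, and in UD+RANKL they remained under control by 0.37 and 0.22 on the log2 scale (adjusted p = 2.46e-05 and 0.0218). The Spc25 difference from control did not pass without control library 2, UD+RANKL library 1 or UD+RANKL library 3, at -0.17 to -0.22, nor without the filter (adjusted p = 0.0726). Ndc80 itself fell by 0.50 (SE 0.0735, adjusted p = 1.55e-06) and rose by 0.29 (SE 0.074, adjusted p = 0.00257).

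Knl1, the scaffold on which checkpoint kinases dock, had 14.91, 14.42 and 15.48 FPKM in control, 8.28, 7.66 and 6.94 in RANKL, and 12.71, 12.17 and 12.5 in UD+RANKL. It fell by 0.88 and rose by 0.62 on the log2 scale (adjusted p = 1.39e-12 and 7.04e-09). Mis12 and Dsn1, of the complex that joins the inner to the outer kinetochore, fell by 0.63 and 0.44 and rose by 0.36 and 0.45. Mis12 overlaps Derl2 on the opposite strand, and the sources do not state whether reads were counted by strand. Zwint, a Knl1 partner, was the exception in the network. Its levels were 13.34, 14.98 and 14.7 FPKM in control, 13.5, 13.35 and 14.87 in RANKL, and 20.94, 22.18 and 21.34 in UD+RANKL. The control and RANKL libraries overlapped, and every UD+RANKL library lay above both, by 0.54 against RANKL and 0.58 against control (adjusted p = 8.44e-08 and 7.66e-09).

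**Figure D2:**
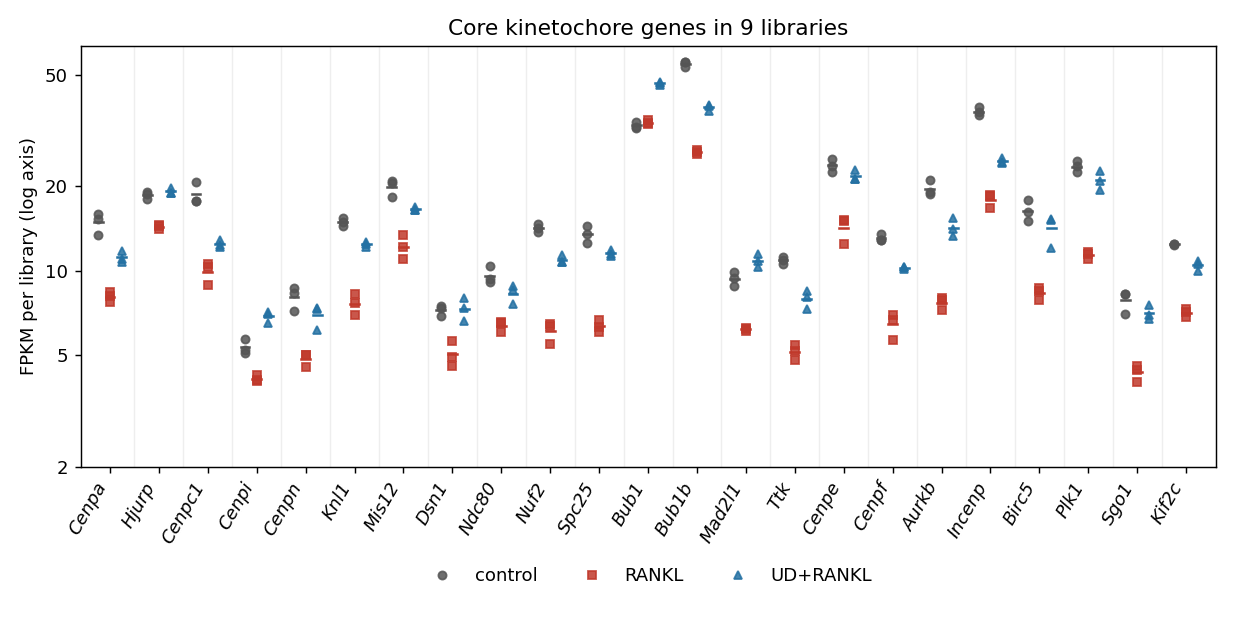
FPKM (log axis) of 23 core kinetochore genes in each of the 9 libraries, with points for single libraries and short bars for group means. In Nuf2, Spc25, Aurkb and Plk1 all RANKL libraries lie below all others, while the RANKL libraries of Bub1 lie at 33.3 to 34.35 FPKM within reach of control at 32.38 to 34.02.

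The spindle assembly checkpoint genes did not move as a block. Bub1b, which encodes BubR1 of the inhibitory checkpoint complex, was among the most abundant of the core genes. It had 55.41, 55.56 and 53.47 FPKM in control, 26.46, 26.94 and 26.08 in RANKL, and 37.17, 38.85 and 38.81 in UD+RANKL. The groups were far apart, with a log2 change of -0.96 with RANKL (SE 0.0472, adjusted p = 9.51e-16) and 0.44 with UD+RANKL against RANKL (SE 0.0474, adjusted p = 2.87e-08). Ttk, the kinase that starts checkpoint signaling, had 10.96, 10.54 and 11.21 FPKM in control, 5.18, 4.8 and 5.44 in RANKL, and 8.07, 8.44 and 7.31 in UD+RANKL. Both Bub1b and Ttk stayed below control in UD+RANKL, by 0.52 and 0.46 on the log2 scale (adjusted p = 3.39e-10 and 1.6e-05).

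Bub1, the kinase that docks on Knl1 and is often named beside Bub1b, differed from it. Bub1 had 32.38, 32.68 and 34.02 FPKM in control, 34.35, 33.69 and 33.3 in RANKL, and 46.96, 46.92 and 45.98 in UD+RANKL. Its control and RANKL libraries overlapped, and UD+RANKL lay above both groups. The log2 change was 0.12 with RANKL (SE 0.0473, adjusted p = 0.0321), a call that was lost with total-count scaling (0.03, adjusted p = 0.576), with limma on FPKM, without the expression filter, and without control library 1 or 2 or RANKL library 1 or 2 (0.11 to 0.12). In UD+RANKL Bub1 was higher than in RANKL by 0.38 and than in control by 0.50 (adjusted p = 3.22e-07 and 8.38e-10). The mitotic checkpoint gene Mad2l1 had 9.88, 9.42 and 8.82 FPKM in control, 6.2, 6.25 and 6.1 in RANKL, and 10.3, 11.43 and 10.82 in UD+RANKL. It thus fell by 0.51 with RANKL and was above control by 0.21 in UD+RANKL (adjusted p = 0.00417). Mad1l1, which anchors Mad2 at the kinetochore, rose with RANKL by 0.38 (adjusted p = 0.000823) and was at -0.07 in UD+RANKL against RANKL (adjusted p = 0.575). Bub3, the adaptor for both Bub kinases, changed by only -0.14 and 0.16, and both calls were lost on leaving out RANKL library 2, at -0.11 and 0.13, the first also without control library 3 or RANKL library 1, without the filter (adjusted p = 0.0865) and with only the 6 libraries compared (adjusted p = 0.0899). Over the 6 tested members 4 fell and 2 rose with RANKL, beside 30.2% and 27.3% of all tested genes. In UD+RANKL against RANKL 5 rose and 0 fell, beside 18.7% and 20.2% of all tested genes.

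The chromosomal passenger complex, the shugoshins and the mitotic kinases formed the list with the lowest median in RANKL against control, at -0.92, and all 7 tested members fell, beside 30.2% of all tested genes. Aurkb (ENSMUSG00000020897, listed on the plus strand of chromosome 11 at 68936473 to 68942490), the kinase of the passenger complex that corrects faulty attachments, had 18.72, 19.11 and 21.05 FPKM in control, 7.98, 7.24 and 7.89 in RANKL, and 13.31, 14.05 and 15.37 in UD+RANKL. All 3 groups were separate, with a log2 change of -1.26 with RANKL (SE 0.0808, adjusted p = 2.8e-13) and 0.80 with UD+RANKL against RANKL (SE 0.0819, adjusted p = 1.42e-08). Incenp, the scaffold of the same complex, had 36.78, 38.23 and 35.88 FPKM in control, 16.76, 18.6 and 18.4 in RANKL, and 24.32, 24.49 and 25.16 in UD+RANKL. Birc5, which encodes survivin, had 17.89, 16.26 and 15.05 FPKM in control, 7.88, 8.67 and 8.5 in RANKL, and 15.25, 12.06 and 15.23 in UD+RANKL. In UD+RANKL against control, Aurkb stood at -0.46 and Incenp at -0.58 (adjusted p = 1.32e-05 and 4.07e-10), and Birc5 at -0.21 (adjusted p = 0.0502). Differences among these 3 genes were not tested. The Birc5 difference from control passed with total counts (adjusted p = 0.0444) and with a replicate block (adjusted p = 0.0395), both at -0.21. It also passed without control library 3, UD+RANKL library 1 or UD+RANKL library 3, at -0.26 to -0.27.

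Plk1, the kinase that acts from centrosome to kinetochore, had 24.54, 22.5 and 23.55 FPKM in control, 11.45, 11.62 and 11.05 in RANKL, and 19.39, 22.72 and 20.96 in UD+RANKL. The control and UD+RANKL libraries overlapped and every RANKL library was lower. Plk1 fell by 0.96 and rose by 0.80 (SE 0.0781 and 0.0785, adjusted p = 3.91e-11 and 7.04e-09). Sgo1, which protects centromeric cohesion, fell by 0.76 and rose by 0.62 (adjusted p = 1.67e-07 and 1.23e-05). All 7 genes of the list rose in UD+RANKL against RANKL, with a median of 0.68, beside 18.7% of all tested genes. In UD+RANKL against control 3 were lower and 0 higher, beside 27.4% and 26.5% of all tested genes. The untested member of the list was Sgo2b, at 0 counts in all libraries.

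**Figure D3:**
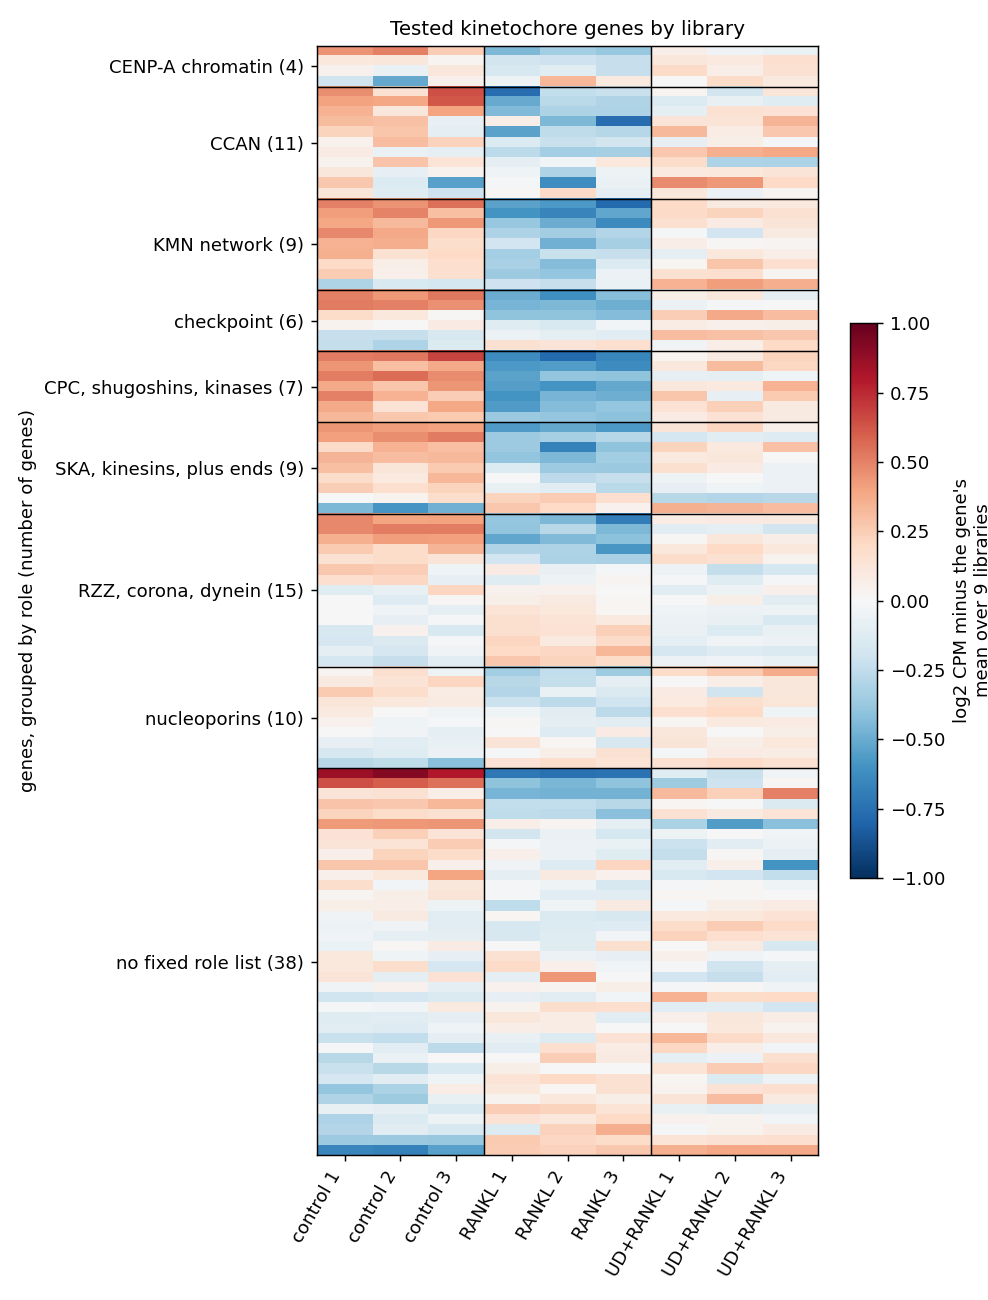
Log2 CPM minus the mean of the gene over the 9 libraries, for 109 tested kinetochore genes in rows grouped by role and 9 libraries in columns, with red above and blue below the mean. The RANKL columns are blue through the KMN, passenger and kinase blocks, while the rows of the RZZ, corona and dynein block are mixed there, with Ndel1 and Dync1li1 red, Zw10 and Cenpf blue and Dctn1 near the mean.

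Proteins of the microtubule end included genes that went in opposite directions. Kif2c, which encodes the microtubule-depolymerizing kinesin MCAK, had 12.49, 12.38 and 12.47 FPKM in control, 7.11, 6.84 and 7.32 in RANKL, and 10.56, 10.82 and 9.97 in UD+RANKL. It fell by 0.72 with RANKL and rose by 0.47 with UD+RANKL against RANKL (adjusted p = 1.56e-09 and 7.15e-06). Knstrn, the small kinetochore-localized partner of astrin, had 17.87, 18.76 and 19.41 FPKM in control, 9.87, 10.12 and 10.42 in RANKL, and 11.89, 12.58 and 12.34 in UD+RANKL. Unlike Kif2c it regained little, with a fall of 0.79 and a rise of 0.19 (adjusted p = 5.5e-12 and 0.0135), and that rise did not pass without RANKL library 1 or UD+RANKL library 2.

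Clasp1, which stabilizes growing microtubules, moved the other way. It had 3.36, 3.08 and 3.31 FPKM in control, 5.22, 5.01 and 4.47 in RANKL, and 5.87, 5.87 and 5.7 in UD+RANKL. It rose by 0.68 with RANKL and was 0.84 above control in UD+RANKL (SE 0.0606 and 0.0605, adjusted p = 2.45e-10 and 3.76e-12). Its smaller rise between those groups, 0.16 (adjusted p = 0.0315), was lost with DESeq2 and without RANKL library 2 or 3 or any UD+RANKL library, at 0.10 to 0.18. Its paralog Clasp2 fell by 0.37 with RANKL (adjusted p = 7.51e-05). Clip1, a plus-end tracking protein, had 13.74, 14.27 and 15.68 FPKM in control, 15.2, 15.57 and 14.62 in RANKL, and 11.33, 11.37 and 11.42 in UD+RANKL. The control and RANKL libraries overlapped and UD+RANKL was the lowest group, by 0.50 against RANKL (SE 0.0517, adjusted p = 1.84e-08), the largest fall of any member in that comparison. Its difference of 0.14 between RANKL and control passed (adjusted p = 0.0193) but was lost with total-count scaling, at 0.06, and without control library 1 or 2 or RANKL library 2. Over the 9 tested members of this list 7 fell and 2 rose with RANKL (median -0.51), beside 30.2% and 27.3% of all tested genes. In UD+RANKL against RANKL 6 rose and 1 fell (median 0.19), beside 18.7% and 20.2% of all tested genes.

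The list of RZZ, fibrous corona and dynein genes held changes in both directions. Zw10, a subunit of the RZZ complex that builds the corona, had 28.19, 29.12 and 28.93 FPKM in control, 14.52, 15.78 and 14.03 in RANKL, and 18.8, 19.1 and 17.85 in UD+RANKL. Its log2 change was -0.87 with RANKL (SE 0.0586, adjusted p = 7.77e-13), and it was still 0.63 below control in UD+RANKL, so it regained only 0.24. Cenpe, the corona kinesin that carries chromosomes to the spindle equator, had 23.62, 22.55 and 25.08 FPKM in control, 15.13, 15.08 and 12.47 in RANKL, and 21.16, 22.79 and 21.32 in UD+RANKL. Cenpf, a large corona protein, had 13.48, 12.85 and 12.86 FPKM in control, 6.98, 6.69 and 5.65 in RANKL, and 10.16, 10.33 and 10.3 in UD+RANKL. Cenpe and Cenpf fell by 0.65 and 0.93 and rose by 0.53 and 0.59, and UD+RANKL stood at -0.13 (adjusted p = 0.0976) and -0.35 (adjusted p = 1.92e-05) from control, of which the first passed without RANKL library 3 and with only the 6 libraries compared.

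The dynein, dynactin and adaptor genes of the same list, whose products also carry cargo in cells that do not divide, were mixed. Dync1li1, a light intermediate chain of dynein, had 27.65, 26.45 and 28.86 FPKM in control, 31.92, 32.2 and 34.99 in RANKL, and 26.14, 27.13 and 26.7 in UD+RANKL. Every RANKL library was above both other groups, which overlapped, and the log2 change was 0.34 with RANKL and -0.40 with UD+RANKL against RANKL (SE 0.0541 and 0.0542, adjusted p = 4.62e-06 and 1.65e-06). Ndel1, a dynein adaptor, had 15.7, 15.21 and 16.52 FPKM in control, 20.12, 19.55 and 19.01 in RANKL, and 16.95, 17.43 and 17.03 in UD+RANKL. It rose by 0.40 and fell by 0.28 (adjusted p = 5.95e-06 and 0.000917). Its paralog Nde1, named here after its values were seen, went the other way, with a fall of 0.85 and a rise of 0.52 (adjusted p = 1.1e-12 and 7.24e-08), although Nde1 overlaps Marf1 on the opposite strand. Of the dynactin subunits, also named after their values were seen, Dctn2 and Dctn3 rose by 0.28 and 0.27 with RANKL and fell by 0.23 and 0.27 with UD+RANKL against RANKL. Dctn1, the largest subunit, was at 0.01 and -0.07, Dctn5 at -0.15 and 0.00, Dctn6 at 0.10 and -0.07 and the light intermediate chain Dync1li2 at -0.16 and -0.15, none of which passed. Over all 15 tested genes 6 rose (40%) and 5 fell (33.3%) with RANKL, beside 27.3% and 30.2% of all tested genes. With total-count scaling this turned to 3 up and 7 down, beside 21.5% and 36.8% of all tested genes. With UD+RANKL against RANKL 5 rose and 6 fell, beside 18.7% and 20.2% of all tested genes. With total counts 5 rose and 4 fell in that comparison, beside 28% and 14.3% of all tested genes. The balance of rises and falls in the list thus changed with the scaling, as did that of all tested genes.

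**Figure D4:**
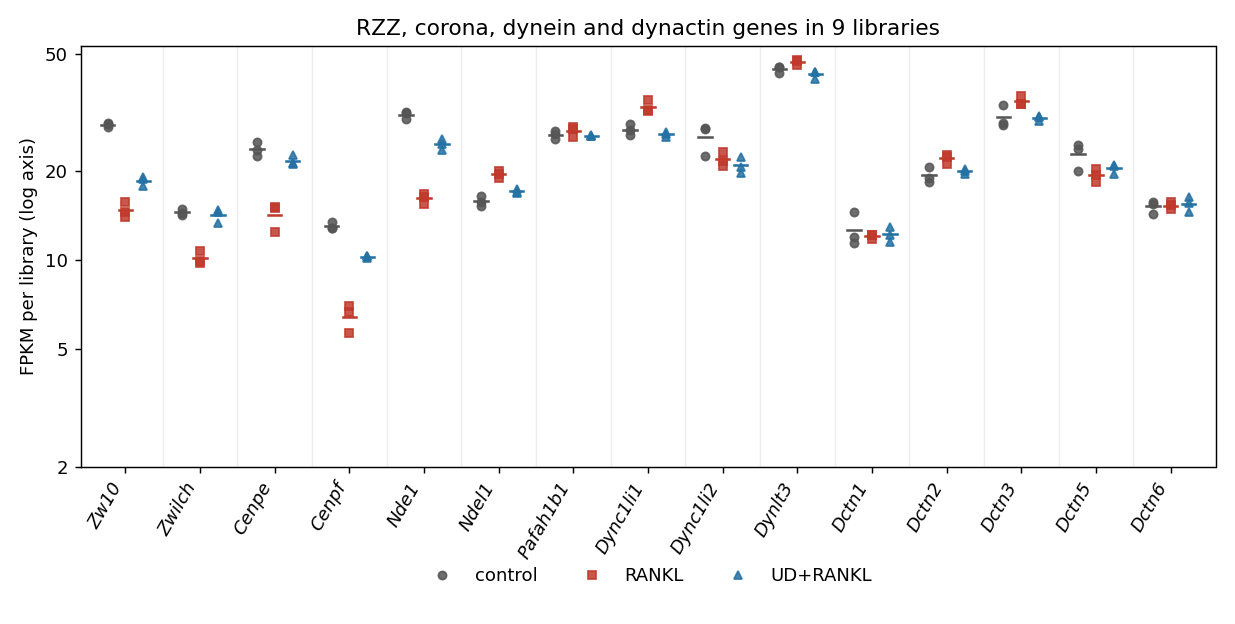
FPKM (log axis) of the 15 RZZ, corona, dynein and dynactin genes in each of the 9 libraries, with points for single libraries and short bars for group means. Zw10, Zwilch, Cenpe, Cenpf and Nde1 have their RANKL libraries lowest, while Ndel1, Dync1li1 and Dctn2 have them highest.

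Nucleoporins and transport factors of the list reside at kinetochores in mitosis and at the nuclear pore in interphase. Nup107, of the Y-shaped pore complex, had 21.22, 21.15 and 20.84 FPKM in control, 15.83, 15.39 and 16.02 in RANKL, and 20.81, 21.96 and 21.26 in UD+RANKL. Its RANKL libraries were the lowest and the other groups overlapped, with changes of -0.33 and 0.35 on the log2 scale (adjusted p = 1.26e-05 and 1.36e-05). Xpo1, the main nuclear export receptor, had 61.28, 58.24 and 59.35 FPKM in control, 56.6, 52.9 and 52.04 in RANKL, and 60.15, 64.35 and 63.38 in UD+RANKL. With RANKL it was at -0.06 (adjusted p = 0.292), which became -0.15 and passed with total-count scaling, and it rose by 0.13 with UD+RANKL against RANKL (adjusted p = 0.029), a call lost without RANKL library 2 or 3 or UD+RANKL library 2 or 3. Of the 10 tested genes 4 fell and 2 rose with RANKL (median -0.11), 5 rose and 0 fell in UD+RANKL against RANKL (median 0.15), and 4 were higher and 0 lower than control in UD+RANKL. Of all tested genes 30.2% fell and 27.3% rose with RANKL, and 18.7% rose and 20.2% fell in UD+RANKL against RANKL. Against control, 26.5% of all tested genes were higher and 27.4% lower in UD+RANKL. For the 10 genes, total-count scaling gave 6 down and 1 up with RANKL and 7 up with UD+RANKL against RANKL. With that scaling 36.8% of all tested genes fell and 21.5% rose with RANKL, and 28% rose and 14.3% fell in UD+RANKL against RANKL. The 2 tested protein phosphatase genes, Ppp1cc and Ppp1r12a, were at -0.17 and 0.11 with RANKL, of which the fall of Ppp1cc passed (adjusted p = 0.00296), and at 0.21 and -0.23 with UD+RANKL against RANKL, which both passed (adjusted p = 0.000707 and 0.00211). Pbrm1, a chromatin remodeling subunit, rose by 0.24 with RANKL (adjusted p = 0.00172) and was at -0.01 in UD+RANKL against RANKL (adjusted p = 0.954).

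The remaining 44 protein-coding members stood in no role list, and of the 38 that were tested 11 were higher and 11 lower in RANKL than in control, with a median of 0.02. That is 28.9% each way, near the 27.3% higher and 30.2% lower of all tested genes. Total-count scaling made the counts 7 higher and 14 lower, with a median of -0.07, beside 21.5% and 36.8% of all genes. Among these 38 were the protein-coding members with the largest fall and the largest rise with RANKL, Rassf2 and Cfdp1. Rassf2, a Ras-association domain protein, had 8.34, 8.79 and 8.04 FPKM in control, 2.65, 2.59 and 2.6 in RANKL, and 4.22, 3.98 and 4.5 in UD+RANKL. The table lists Rassf2 (ENSMUSG00000027339) on the minus strand of chromosome 2, at 131831335 to 131872178. The 3 groups were far apart, with a log2 change of -1.60 with RANKL (SE 0.0666, adjusted p = 2.85e-17), 0.61 with UD+RANKL against RANKL (SE 0.0684, adjusted p = 6.32e-08) and -0.98 in UD+RANKL against control. Septin6, a septin filament subunit, had 2.94, 2.88 and 2.76 FPKM in control, 1.34, 1.29 and 1.34 in RANKL, and 1.46, 1.64 and 1.9 in UD+RANKL. It fell by 1.02 (adjusted p = 3.18e-09), and the difference of 0.25 with UD+RANKL against RANKL did not pass (adjusted p = 0.0754), but passed at 0.33 with total-count scaling (adjusted p = 0.0154) and without UD+RANKL library 1 (adjusted p = 0.0275). Septin7 went against Septin6, at 42.96, 43.25 and 42.85 FPKM in control, 62.75, 60.47 and 59.37 in RANKL, and 60.62, 62.08 and 62.29 in UD+RANKL. It rose by 0.59 with RANKL (SE 0.0432, adjusted p = 4.85e-12) and was at -0.07 in UD+RANKL against RANKL (adjusted p = 0.228), and it overlaps an unnamed gene on the opposite strand.

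Cfdp1, a chromatin protein with a BCNT domain, was the member with the highest mean level. It had 57.81, 57.65 and 62.8 FPKM in control, 102.35, 100.98 and 103.69 in RANKL, and 116.12, 120.43 and 118.99 in UD+RANKL. All RANKL libraries lay above control and all UD+RANKL libraries above RANKL, at 0.87 with RANKL (SE 0.0533, adjusted p = 1.03e-13) and 1.00 against control (SE 0.0532, adjusted p = 6.68e-15). The difference between UD+RANKL and RANKL was 0.13 and stood at the threshold (adjusted p = 0.0553), passing with total-count scaling and limma at 0.21, and with only the 6 libraries compared, a replicate block or control library 3 left out at 0.13. Smc1a, a cohesin subunit, had 48.09, 46.59 and 50.75 FPKM in control, 55.09, 53.1 and 52.79 in RANKL, and 61.29, 67.35 and 64.87 in UD+RANKL, and rose by 0.23 and then 0.18 (adjusted p = 0.000171 and 0.00422). Tpr, the nuclear basket protein that also binds Mad1 and Mad2, rose by 0.14 with RANKL (adjusted p = 0.0185), which was 0.05 and did not pass with total-count scaling, nor at 0.10 to 0.13 without control library 1, RANKL library 1 or RANKL library 2, and overlaps Odr4 on the opposite strand.

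Ercc6l, which encodes the centromeric DNA translocase PICH, had 7.36, 7.53 and 7.08 FPKM in control, 4.6, 4.59 and 4.57 in RANKL, and 8.4, 8.01 and 9.58 in UD+RANKL. Its rise with UD+RANKL against RANKL, 0.83 (SE 0.0819, adjusted p = 7.21e-09), was the largest of the protein-coding members, and it was 0.24 above control (adjusted p = 0.0116), a call lost without UD+RANKL library 3. Phf8, a histone demethylase, fell in both comparisons. It had 15.27, 15.57 and 15.55 FPKM in control, 11.26, 11.03 and 10.06 in RANKL, and 9.13, 7.8 and 8.59 in UD+RANKL. Each group lay below the one before it, with changes of -0.43 and again -0.43 (SE 0.0593 and 0.0609, adjusted p = 5.82e-07 and 3.02e-06). Csnk1a1, casein kinase 1 alpha, had 41.39, 41.12 and 39.43 FPKM in control, 49.01, 48.18 and 45.3 in RANKL, and 41.42, 41.04 and 41.16 in UD+RANKL, which was 0.31 up and 0.29 down. Over the 38 genes 10 rose and 4 fell in UD+RANKL against RANKL, with a median of 0.03, or 15 and 2 with total counts. Of all tested genes 18.7% rose and 20.2% fell, or 28% and 14.3% with total counts.

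The 2 largest rises of all members belonged to neighboring pseudogenes. Gm7162 had 0.52, 0.49 and 0.12 FPKM in control, 2.58, 1.92 and 2.09 in RANKL, and 3.08, 5.33 and 4.3 in UD+RANKL. Gm16574 had 1.12, 0.88 and 0.08 FPKM in control, 2.93, 3.33 and 2.45 in RANKL, and 4.92, 5.18 and 5.05 in UD+RANKL. Both were lowest in control, and the table lists them on chromosome 17 at 13038706 to 13039729 (minus strand) and 13037680 to 13038424 (plus strand). With RANKL they rose by 2.57 and 2.10 on the log2 scale (SE 0.4 and 0.405, adjusted p = 4.2e-06 and 7.19e-05), from few reads. Gm7162 reached 1 FPKM in no control library and Gm16574 only in control library 1. Both thus passed the expression filter only through the groups where they were high, so their rises are not independent of that filter. Gm7162 overlaps the long noncoding RNA gene Airn on the opposite strand, and reads from pseudogenes may stem from their parent genes. With UD+RANKL against RANKL, Gm7162 rose by 0.85 (adjusted p = 0.0186), which did not pass with limma on log2(FPKM + 0.1) or without RANKL library 2 or 3 or UD+RANKL library 2 or 3, and Gm16574 was at 0.71 (adjusted p = 0.0693), which passed without control library 3, with total counts, with only the 6 libraries compared and with limma on log2(FPKM + 1).

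UD+RANKL and control were compared next, list by list. Against control, the KMN network had 6 genes lower and 1 higher of 9, and the microtubule-end list had 6 lower and 1 higher of 9. The checkpoint list had 2 lower and 3 higher of 6, the CCAN 1 lower and 2 higher of 11, and the nucleoporins 0 lower and 4 higher of 10. Of all tested genes 27.4% were lower and 26.5% higher than control. Among the genes of the centromere, outer kinetochore, checkpoint and kinases, Clasp1, Zwint and Bub1 were the highest above control, at 0.84, 0.58 and 0.50, and Knstrn, Cenpc1 and Incenp the lowest, at -0.61, -0.58 and -0.58. The largest falls of all members against control were those of Rassf2 at -0.98, Phf8 at -0.86, Septin6 at -0.78, Zw10 at -0.63 and Knstrn, each with libraries that did not overlap. Wherever a role list had 0 members called in a direction, edgeR's unadjusted p was under 0.05 in that direction for 0 members, other than Cenpv with RANKL and Ppp1r12a (lower in UD+RANKL than in control), and DESeq2 called 0. Differences between genes in how far UD+RANKL stood from control were not tested.

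**Figure D5:**
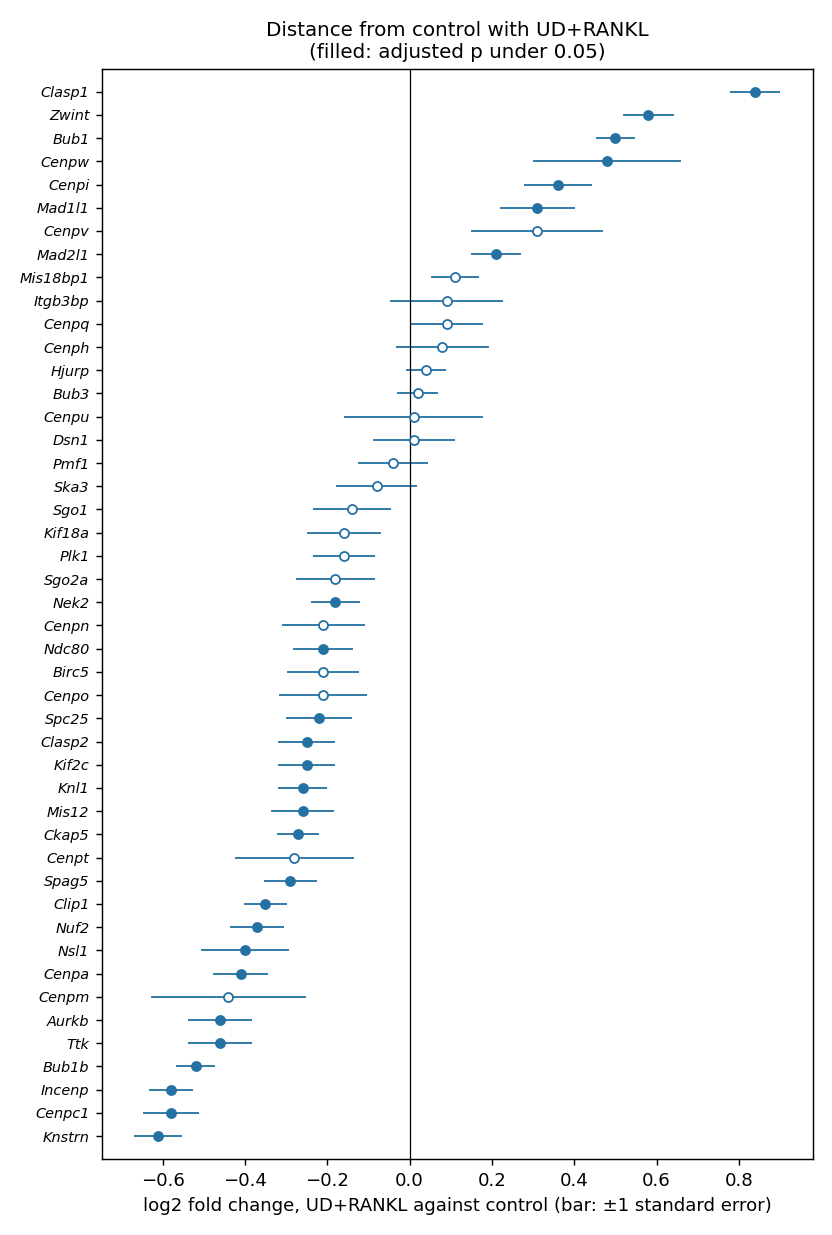
Log2 fold change of UD+RANKL against control (x axis, TMM-scaled counts) for 46 tested genes of 6 role lists, in order of the change, with bars of 1 standard error and filled points for an adjusted p under 0.05. The genes run from Knstrn at -0.61 to Clasp1 at 0.84, and Hjurp, Bub3 and Dsn1 lie within 0.04 of the control level.

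Genes that work with the kinetochore but are no members by the rule were followed by lists. Beside them, 30.2% of all tested genes fell and 27.3% rose with RANKL. In UD+RANKL against RANKL 18.7% of all tested genes rose and 20.2% fell, and 27.4% were lower in UD+RANKL than in control. Of 22 spindle and cytokinesis genes, all 22 fell with RANKL (median -0.90) and 21 rose with UD+RANKL against RANKL (median 0.48), and 19 remained lower than control. Those with the largest changes included Prc1, which bundles the central spindle, at 17.4 ± 1.33 FPKM in control, 6.97 ± 0.393 in RANKL and 12.1 ± 0.259 in UD+RANKL (SD, n = 3). Of 7 condensin genes, 7 fell with RANKL and 6 rose with UD+RANKL against RANKL, such as Ncaph at -0.98 and 0.53. Of 8 proliferation markers, 7 fell and 7 rose in those comparisons. Mki67, the gene of the Ki-67 antigen named here after its values were seen, had 106 ± 6.94, 48.5 ± 5.34 and 84.1 ± 1.69 FPKM (SD, n = 3) in the 3 groups. E2f8, a repressor of the E2F family, fell by 1.35 and rose by 0.93, and the transcription factor gene Mybl2 was at 0.14 (adjusted p = 0.15) and then rose by 0.96.

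Cohesin and separase genes were mixed, with 5 of 14 lower (35.7%) and 4 higher (28.6%) in RANKL than in control, near the 30.2% and 27.3% of all tested genes. In UD+RANKL against RANKL 7 were higher (50%) and 0 lower, beside 18.7% and 20.2% of all tested genes. The acetyltransferase Esco2 fell by 1.09 and rose by 0.62, while the core subunit Rad21 was 0.13 higher with RANKL (adjusted p = 0.0151). Of 17 genes of the anaphase-promoting complex and its regulators 3 fell and 2 rose with RANKL, and 5 rose and 1 fell in UD+RANKL against RANKL. Fbxo5, its inhibitor, fell by 0.95 and rose by 0.48, while most subunits of the complex passed in neither. The role lists also held 68 tested genes that are no members, Cenps and Cenpx among them, of which 29 fell and 12 rose with RANKL, and 31 rose and 6 fell in UD+RANKL against RANKL. Among these, the NDC80 subunit Spc24 fell by 0.66 and rose by 0.47 (adjusted p = 8.5e-06 and 0.00104), and the RZZ subunit Kntc1 fell by 0.58 and rose by 0.36 (adjusted p = 5.58e-07 and 0.000535). Ska1, of the ring that tracks microtubule ends, fell by 0.32 (adjusted p = 0.0156) and was at 0.05 in UD+RANKL against RANKL (adjusted p = 0.785). Ppp2r5a, a phosphatase subunit that shugoshins bring to centromeres, fell in both comparisons, by 0.33 and 0.16.

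For 25 of the 115 tested members, the table lists another expressed gene over the same bases on the other strand. Without them, 46 of 90 members fell and 19 rose with RANKL, and 49 rose and 11 fell in UD+RANKL against RANKL, with medians of -0.17 and 0.22. Over all tested genes, 30.2% fell and 27.3% rose in the first comparison, and 18.7% rose and 20.2% fell in the second.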

How the data were processed

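The authors deposited whole-number counts of reads per gene, without normalization, and FPKM values made from these counts, the exonic length and the library total. Libraries were poly(A)-selected and strand-specific per the labels, which name no aligner or counting tool (not given in the sources used here). The submitters' processing notes name mm10, but only 9 of 186 members have the table's coordinates in the GRCm38 annotation, so the build of the table is not settled and coordinates in it are given as listed. All count and FPKM columns each matched 1 library, and 0 were left unused. Columns headed Model were taken as RANKL from the paper's wording.

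All 9 libraries were fitted together with edgeR 4.0.16 in R 4.3.3 (robust quasi-likelihood test, TMM factors, genes reaching 1 FPKM in 3 or more libraries, Benjamini-Hochberg over 11995 genes, calls at an adjusted p under 0.05). The paper names DESeq2, and DESeq2 1.42.0 was an alternative, as were limma 3.58.1 on log2(FPKM + 1) or log2(FPKM + 0.1), RLE or total-count scaling, no filter, only the 6 libraries compared, a replicate block, a fold change over 1.5, and each library left out. The edgeR test was run on simulated counts in which few genes changed, up or down at random, all with the same dispersion. Such counts cannot test the choice of scaling in these data, where many genes were called. Libraries of a group differed by more than sampling noise (chi-square per degree of freedom 2.91 to 8.95), so none were merged. The p-values measure the spread between these libraries, which may be in part technical.

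Members, lists and alternatives were chosen with earlier results of these data known. Named genes are a core list, the 5 largest rises and falls per comparison among called members whose libraries do not overlap, the 5 with the highest mean FPKM, at most 2 per pathway list with the largest changes, and cell type markers. All other genes named were chosen after their values were seen. Gene types came from the GENCODE GRCm38 annotation, and Python 3.11.15 with pandas 2.3.3 made the summaries.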

Additional observations from a re-analysis of the deposited data

How the results depend on the processing

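No member that was called both in the main test and under an alternative changed its sign between them. In RANKL against control, 16 members rose with total-count scaling, with limma on log2(FPKM + 1) and with limma on log2(FPKM + 0.1), and the median was -0.25, -0.23 and -0.25. A fold change over 1.5 was also passed by 5 of the higher and 30 of the lower members. In UD+RANKL against RANKL, the median was 0.27 with total counts, 0.25 with a pseudocount of 1 and 0.27 with 0.1, and limma called 7 members lower with either pseudocount. A fold change over 1.5 was passed by 18 higher and 0 lower members with edgeR, where 12 lower members passed without the fold. In UD+RANKL against control it was passed by 4 higher and 6 lower members, and without the filter the median was 0.00. The share of all tested genes beyond a fold change of 1.5 was not computed, so these splits cannot be set against it. On leaving out each library in turn, RANKL against control gave 20 to 27 higher and 54 to 59 lower members and medians of -0.19 to -0.15. UD+RANKL against RANKL gave 49 to 61 higher and 11 to 13 lower members and medians of 0.18 to 0.2, and UD+RANKL against control gave 22 to 27 higher and 30 to 36 lower members and medians of -0.04 to -0.03. Same-numbered libraries did not deviate together (correlations -0.0252 to 0.0777), so numbers were not taken to pair samples. With a replicate block the counts were 27 higher and 60 lower, 60 and 13, and 27 and 36 in the 3 comparisons. Of the 138 fold changes of named members, 2346 values were computed under alternatives, of which 51 were weaker and 27 stronger by their calls and 0 reversed. With 3 libraries a group, errors were wide for some members of low level, such as Gm7162 and Gm16574. Errors did not follow level alone, since with RANKL that of Clasp1 was narrower than that of Aurkb.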
